A study of Mus musculus with 20 samples.

Results

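The interferon-stimulated genes of mouse liver were described here as 31 named genes, of which 29 were measured among 18193 genes in all. A member was measured where the array annotation gave a probe set exactly 1 gene symbol and that symbol was on the list. The rule found 45 such probe sets, and where a gene had several the probe set with the highest mean level was used. Isg15 shared its probe set with a second symbol, and Ifi44 had no probe set listed, so neither was measured.

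The study asked how an extract from maple syrup acts on the liver of mice on a high-fat diet. Liver RNA came from 20 male C57BL/6J mice that were 8 weeks old and fasted for 16 h, with 1 Affymetrix 3' array per mouse. A group of 10 mice had eaten a diet with 45 kcal% of its energy as fat for 4 weeks (HFD), and for another 10 mice 0.02% of the extract MSXH was added to it (002MSXH in the labels, MSXH here). All mice had first been kept on a low-fat diet for acclimation, and the mice that stayed on it or ate more extract were not analysed here. Whole liver was used, so each array pools hepatocytes with the other cells of the organ, and fewer cells of a type and less RNA per cell cannot be told apart.

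Interferons are secreted proteins that warn cells of viruses and other microbes. Type I and type III interferons signal through the kinases JAK1 and TYK2 to a complex that holds STAT2 and IRF9 and binds the interferon-stimulated response element (ISRE), while interferon gamma signals through JAK1 and JAK2 to the gamma-activated site (GAS). The genes switched on in this way include sensors of viral RNA, proteins that block viral translation or budding, GTPases that attack the vacuoles of intracellular parasites, and chemokines that draw T cells. In liver they are expressed by hepatocytes as well as by Kupffer cells and endothelium.

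The response elements could be read in the RefSeq promoters of many members, and 10 that hold an ISRE are shown to let the elements be compared. They are those of members with an r of 0.7 or more with another member in both groups (below); Irf7, Oasl2 and Cxcl9 reached that r too, but their windows hold neither element. Each window ran from 250 bases before to 50 bases after an annotated start in GRCm38.p6, and 30 windows of 26 listed genes were found. The ISRE was searched as GAAANNGAAA and its reverse complement TTTCNNTTTC, where N is any base, and overlapping matches were allowed. It was present in 14 of the 30 windows (46.7%), against 3.44% of all 32851 windows. The windows with an ISRE that are not shown are those of Ifih1, Stat2, Eif2ak2 and Isg15. Ifih1, Stat2 and Eif2ak2 reached that r with no member in both groups, and Isg15 was not measured. The GAS was searched as TTCNNNGAA, which is its own reverse complement, and was present in 7 of the 30 windows (23.3%), against 8.3% of all windows. The 2 motifs can share bases. No match says only that these letters are not in that window, which was the case for Rnf213, Samd9l, Oasl1, Oasl2, Irf7, Irf9, Trim25, Cxcl9 and Ifi44. Usp18, Dhx58, Parp14, Ifi27l2a and Iigp1 had no window in the table.

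Stretches around the ISRE matches are printed from 5′ to 3′ on the strand of the gene, with the matched bases in capitals. They lie at chr19:34640765-34640833 (Ifit1), chr19:34583353-34583436 (Ifit3) and chr12:26456543-26456592 (Rsad2), and at chr3:142620584-142620633 (Gbp2) and chr3:142559979-142560034 (Gbp3). The others lie at chr11:48871415-48871470 (Irgm1), chr11:58199502-58199551 (Igtp), chr5:120907510-120907565 (Oas1a), chr8:71537567-71537622 (Bst2) and chr5:92349073-92349122 (Cxcl10). Irgm1, Oas1a, Bst2, Rsad2 and Cxcl10 are on the minus strand and the others on the plus strand.
Ifit1: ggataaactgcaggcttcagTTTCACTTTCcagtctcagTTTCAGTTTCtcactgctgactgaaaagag
Ifit3: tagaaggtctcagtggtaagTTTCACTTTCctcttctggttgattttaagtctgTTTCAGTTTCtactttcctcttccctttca
Rsad2: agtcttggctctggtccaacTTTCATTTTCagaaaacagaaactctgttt
Gbp2: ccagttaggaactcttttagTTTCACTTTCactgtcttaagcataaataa
Gbp3: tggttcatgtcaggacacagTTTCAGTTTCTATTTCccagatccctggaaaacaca
Irgm1: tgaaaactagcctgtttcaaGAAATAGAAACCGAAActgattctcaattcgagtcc
Igtp: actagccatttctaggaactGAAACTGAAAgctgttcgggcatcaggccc
Oas1a: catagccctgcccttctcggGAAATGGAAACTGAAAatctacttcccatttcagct
Bst2: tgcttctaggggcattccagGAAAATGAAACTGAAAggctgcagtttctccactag
Cxcl10: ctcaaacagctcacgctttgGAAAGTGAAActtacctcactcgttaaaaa
Gbp3, Irgm1, Oas1a and Bst2 each held 2 overlapping matches, and Ifit1 and Ifit3 each held 2 separate ones. The window of Irf1, a target of interferon gamma, had no ISRE but held a GAS match that starts 90 bases before the annotated start (chr11:53769904-53769952, plus strand), with its bases in capitals.
Irf1: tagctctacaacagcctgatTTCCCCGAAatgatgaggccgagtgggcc

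The deposited values lay between 5.17 and 15.01 log units, the array medians ran from 6.52156 to 6.52255, and the spread between mice was strongly compressed. The median gene had an SD of 0.0121 milliunits over the 20 mice, where a milliunit is 0.001 of the deposited log unit. Differences are therefore given in units of the pooled SD within groups (standardized differences, MSXH minus HFD, with 95% intervals) and not as folds, and the values of mice are given in milliunits from the HFD mean of that gene. The 9 measured hepatocyte markers had a summed level of 115.703 to 115.801 in HFD and 115.711 to 115.796 in MSXH, and 8 of them lay above the median gene. MSXH mice 4 and 6 stood apart: they carried the 2 highest array medians and the 12 skeletal muscle genes at a mean of 3.41 and 1.4 SDs above the mean of all mice, and the sum of those genes reached 98.177 in MSXH against 77.185 in HFD. Values without these 2 arrays are given beside the main counts, the largest differences, the spread and the correlations.

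Most members varied more between mice than most genes. Their mean levels ran from 6.31 (Oasl2) to 11.65 (Iigp1), and 25 of 29 lay above the median gene at 6.91. The median SD of the members was 0.168 milliunits, the median percentile of their SDs among all genes was 90.8, and 16 members were over the 90th percentile. The chemokine Cxcl9 was at the 99.2 percentile and the guanylate-binding protein genes Gbp2 and Gbp3 at 98.4 and 98.1, while Eif2ak2, the kinase PKR that stops translation in infected cells, was at 51.1.

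With the values as deposited, 26 of the 29 members (89.7%) were higher in MSXH, but 10 were with quantile normalization and 13 with centring, which takes its own median off each array. Among all genes, 54.7% were higher as deposited, 7.74% after quantile normalization and 2.75% after centring. The median standardized difference of the members was 0.621, against 0.0669 over all genes. After quantile normalization these medians were -0.192 and -0.549, and after centring -0.16 and -0.661. MSXH 4 and 6 had the highest array medians, and without these mice 27 members were higher in the deposited values, 26 after centring and 25 after quantile normalization, with medians of 0.904, 0.871 and 0.617. Among all genes 54.6%, 42.0% and 54.6% were higher in these 3 settings, with medians of 0.0693, -0.0326 and 0.0817.

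No member passed an adjusted p of 0.05 in limma with Benjamini-Hochberg adjustment over all genes, and of all 18193 genes 0 did (0%), while 1982 genes had an unadjusted p under 0.05. The rank sum test called 4 genes, of which 0 were members. At an unadjusted limma p under 0.05 there were 9 members, all higher in MSXH (31.0% of 29), against 6.58% of all genes that were higher at that p. In either direction, 1 member was at that p after quantile normalization, where Ifi35 had the largest difference at -1.19, and 0 after centring. Of all 18193 genes 748 and 210 were. Without MSXH 4 and 6 there were 11 members as deposited, 11 with centring and 8 with quantile normalization, where Ifi35 stood at -1.08. Of all genes 1873, 357 and 2118 were at that p in either direction in these 3 settings. The levels of HFD and MSXH mice overlapped for each of the 29 members.

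**Figure D1:**
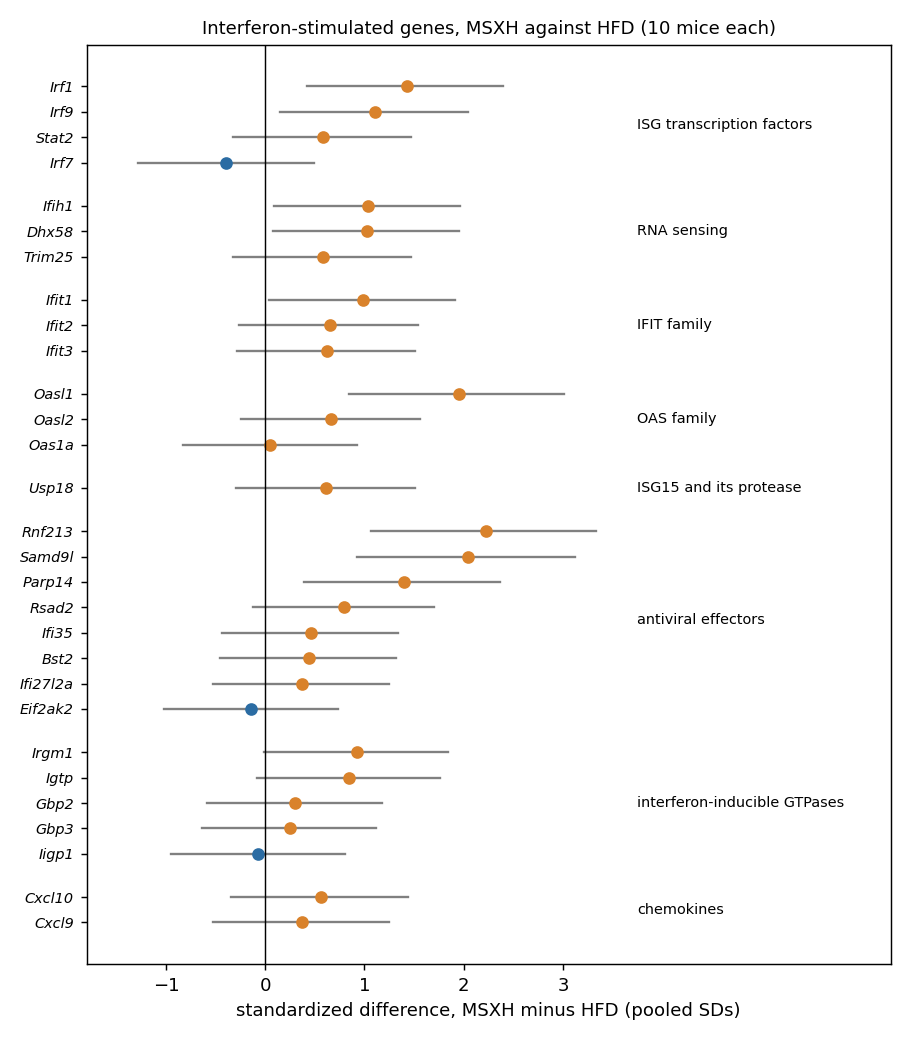
Standardized difference (MSXH minus HFD, in pooled SDs within groups; values as deposited) of each of the 29 members, grouped by role, with lines for the 95% interval and 10 mice in each group. Orange points lie above 0 (26 members) and blue points below (Irf7, Eif2ak2 and Iigp1); 16 members turned sign after quantile normalization and 13 after centring.

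The largest standardized differences belonged to 3 antiviral genes: Rnf213, Samd9l and Oasl1. Rnf213, a giant ubiquitin ligase that coats bacteria and lipid droplets (gene ID 672511, chr11:119389950-119487418), ran from -0.0401 to 0.0472 milliunits over the HFD mice, with a median of 0.00212. Over the MSXH mice it ran from 0.0374 to 0.115, with a median of 0.048. All 10 MSXH mice were above the HFD median and 5 were above every HFD mouse. The difference was 2.22 (1.07 to 3.33), the MSXH mouse was higher in 92 of the 100 possible pairings with an HFD mouse, and the limma adjusted p was 0.104, the smallest of any member. It was 0.2 after quantile normalization and -0.408 after centring, and without MSXH 4 and 6 it was 2.2 as deposited, 1.58 centred and 0.669 after quantile normalization.

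Samd9l, an antiviral and growth-restraining protein (gene ID 209086, chr6:3372257-3399571), ran from -0.058 to 0.0467 milliunits in HFD with a median of 0.0023. In MSXH it ran from 0.0134 to 0.0922 with a median of 0.0759. Here 7 MSXH mice lay above every HFD mouse, and MSXH 2 was the lowest of its group. The difference was 2.04 (0.925 to 3.12), with 91 of 100 pairs higher and a limma adjusted p of 0.153. It turned to -0.469 after quantile normalization and to -0.407 after centring, and was 1.83, 1.32 and 0.617 without MSXH 4 and 6 as deposited, centred and quantile normalized.

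Oasl1, a member of the oligoadenylate synthetase family that in mice restrains the translation of Irf7 (gene ID 231655, chr5:114923143-114937911), ran from -0.104 to 0.151 milliunits in HFD with a median of 0.00911. In MSXH it ran from 0.09 to 0.771 with a median of 0.259, and 8 MSXH mice lay above every HFD mouse. MSXH was higher in 98 of 100 pairs, the highest share among the members. The difference was 1.95 (0.849 to 3.01), with a limma adjusted p of 0.166. After quantile normalization it was -0.111 and after centring 0.521, while without MSXH 4 and 6 the 3 values were 1.95, 1.9 and 0.819.

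**Figure D2:**
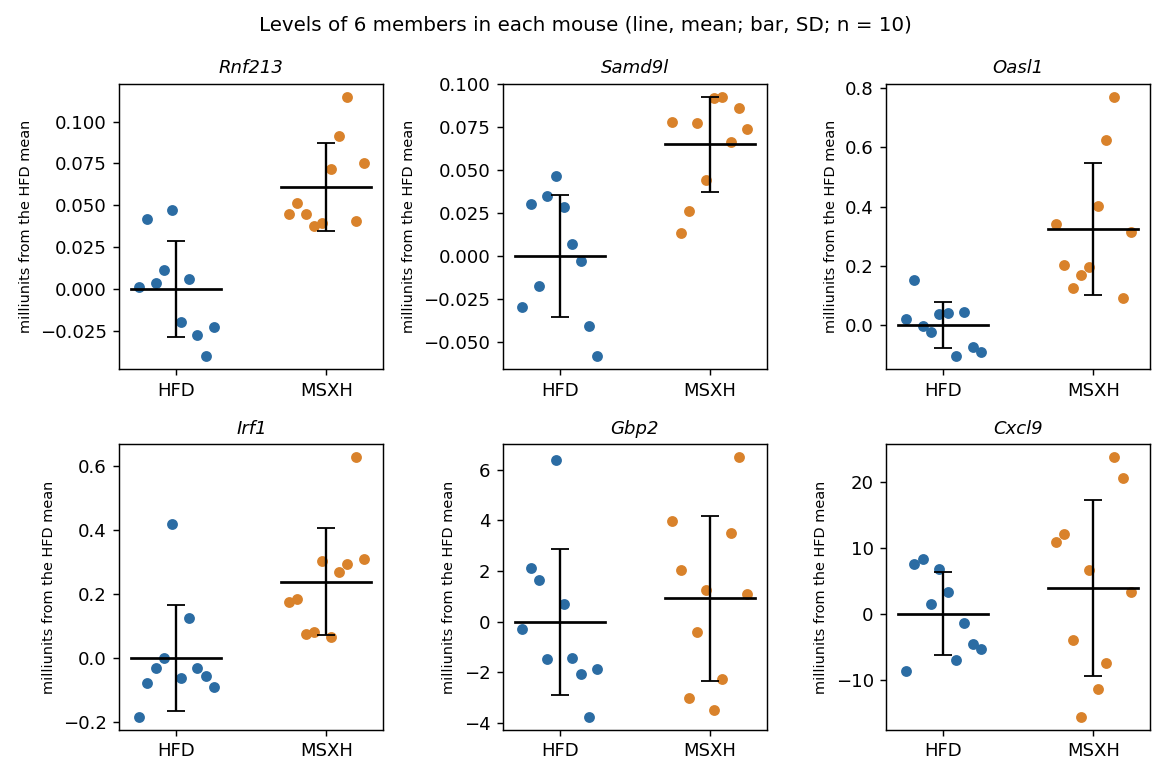
Level of 6 members in each mouse, as milliunits (0.001 of the deposited log unit) from the HFD mean of that gene, with a horizontal line at the group mean and a bar for the SD (n = 10 in each group). For Rnf213, Samd9l and Oasl1, 5, 7 and 8 of the 10 MSXH points lie above all HFD points, whereas for Gbp2 and Cxcl9 the groups cover much of the same range.

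Among the transcription factors of the response, Irf1, Irf9 and Stat2 were higher in MSXH and Irf7 was lower as deposited, but Irf1 and Irf9 turned under quantile normalization and Stat2 under both scalings. Irf1, induced by interferon gamma, ran from -0.184 to 0.417 milliunits in HFD (median -0.045) and from 0.0655 to 0.627 in MSXH (median 0.226). HFD 5 and MSXH 9 were far above the rest of their groups, and 8 HFD mice lay below every MSXH mouse. The difference was 1.43 (0.419 to 2.4), with an unadjusted limma p of 0.0043 and an adjusted p of 0.269. Irf9, the DNA-binding subunit of the ISRE complex, stood at 1.11 (0.145 to 2.04; unadjusted limma p 0.021), and Stat2, its partner, at 0.579 (-0.325 to 1.47). Irf7, the factor that amplifies type I interferon, stood at -0.397 (-1.28 to 0.494), and its MSXH values from -0.259 to 0.185 milliunits spanned those of HFD, from -0.214 to 0.134.

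All 3 genes for sensing of viral RNA were higher in MSXH as deposited and lower after quantile normalization and after centring. Ifih1, the sensor MDA5, ran from -0.077 to 0.0919 milliunits in HFD (median -0.0115) and from -0.00538 to 0.0776 in MSXH (median 0.05), where no mouse exceeded the highest HFD mouse. Its difference was 1.04 (0.0847 to 1.96; unadjusted limma p 0.0296). Dhx58, the regulator LGP2, stood at 1.03 (0.0754 to 1.95; unadjusted limma p 0.031), and HFD 5 was far above the other HFD mice. Trim25, a ubiquitin ligase that acts on the sensor RIG-I, stood at 0.582 (-0.323 to 1.47), and at 1.03 without HFD 4. The other probe sets of Dhx58 and Trim25 did not all follow: those of Dhx58 stood at 0.837 and -0.26, and those of Trim25 at 0.818 and -0.0387.

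In the IFIT family, whose proteins bind foreign RNA and block its translation, all 3 members were higher in MSXH as deposited, all 3 were lower after quantile normalization, and Ifit2 was lower after centring. Ifit1 ran from -0.444 (HFD 9) to 0.511 milliunits (HFD 5) in HFD, with a median of -0.00985. In MSXH it ran from -0.2 (MSXH 3) to 0.597 (MSXH 9), with a median of 0.28. Its difference was 0.986 (0.0406 to 1.91; unadjusted limma p 0.037). Ifit2 stood at 0.65 (-0.26 to 1.54) and Ifit3 at 0.621 (-0.286 to 1.51). In the OAS family, whose classical members make the messenger that activates RNase L, Oasl2 stood at 0.667 (-0.244 to 1.56) and Oas1a at 0.0441 (-0.833 to 0.92). Both turned under both scalings, and the sign of Oas1a also turned when single mice were left out. Usp18, the protease that removes ISG15 and restrains the type I receptor, stood at 0.616 (-0.291 to 1.51), and it kept its sign under both scalings. Without HFD 2 it was at 1.13 and without HFD 8 at 0.458.

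Of the 8 measured antiviral effectors 7 were higher in MSXH as deposited, of which Samd9l, Parp14 and Ifi35 turned under both scalings and Rnf213 and Bst2 after centring. Parp14, a mono-ADP-ribosyltransferase, ran from -0.0273 to 0.0437 milliunits in HFD (median -0.00309) and from -0.000516 to 0.0666 in MSXH (median 0.0302). Its difference was 1.4 (0.394 to 2.37; unadjusted limma p 0.00523), and its other probe set stood at 1.21. Rsad2, which encodes viperin and makes a chain-terminating nucleotide, ran from -2.49 to 2.86 milliunits in HFD and from -1.47 to 5.52 in MSXH. Its difference was 0.796 (-0.128 to 1.7), and it stayed positive under both scalings, at 0.607 and 0.702. Bst2 (tetherin) stood at 0.439, Ifi35 at 0.46 and Ifi27l2a at 0.366, each with an interval that spans 0. Eif2ak2 stood at -0.148 (-1.02 to 0.732), and its sign turned to 0.0734 with the mean of its probe sets. Of its other probe sets, 1 stood at -0.151 and 1 at 0.929 (unadjusted limma p 0.0485).

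The interferon-inducible GTPases held several of the most variable members and the smallest median difference of any role with more than 1 measured member, at 0.3 as deposited. Irgm1, a regulator of the immunity-related GTPases, stood at 0.921 (-0.0168 to 1.84; unadjusted limma p 0.0501), and turned under both scalings. Igtp, another of these GTPases, ran from -1.05 to 1.64 milliunits in HFD and from -0.504 to 2.37 in MSXH. Its difference of 0.849 (-0.0803 to 1.76) kept its sign under both scalings. Gbp2 ran from -3.75 (HFD 9) to 6.38 milliunits (HFD 5) in HFD and from -3.48 (MSXH 6) to 6.49 (MSXH 9) in MSXH. These ranges nearly coincide, and the difference was 0.3 (-0.586 to 1.18). Gbp3 stood at 0.248 (-0.636 to 1.12) and Iigp1 at -0.0721 (-0.948 to 0.806). Without MSXH 9 the differences of Gbp2 and Gbp3 were 0.107 and 0.0205, while Gbp2 was at 0.602 without HFD 5 and Gbp3 at 0.453 without MSXH 6. Of the chemokines that recruit T cells through CXCR3, Cxcl10 stood at 0.557 (-0.345 to 1.44) and Cxcl9 at 0.368 (-0.522 to 1.25), and both stayed positive under both scalings. Cxcl9 was at 0.173 without MSXH 8 and at 0.63 without MSXH 4, and Cxcl10 at 0.331 without MSXH 9.

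The members therefore split by how far their sign rested on the scaling. The 8 that were higher as deposited and under both scalings were Usp18, Rsad2, Ifi27l2a, Gbp2, Gbp3, Igtp, Cxcl9 and Cxcl10, of which 0 had an unadjusted p under 0.05. Irf7, Eif2ak2 and Iigp1 were lower as deposited and under both scalings. Each turned under another setting: Irf7 was at 1.53 without MSXH 4 and 6 after quantile normalization, Eif2ak2 at 0.0308 without these mice as deposited, and Iigp1 at 0.183 without MSXH 7. The other 18 turned under at least 1 scaling, and all 9 members at an unadjusted p under 0.05 were among them. With Iigp1, the 8 that stayed higher had the largest SD percentiles of the members, all above Bst2 at 94.3. The 9 ran from 68.8 (Parp14) to 93.2 (Ifit1). Centring moves every gene of an array equally, and array medians ran from 6.52156 to 6.52255, where the median gene had an SD of 0.0121 milliunits. A kept sign is therefore no mark of a firmer increase, and the part of the spread in this split was not tested. Without MSXH 4 and 6, 0 members differed in sign from the deposited values after centring, and Irf7, Ifi35 and Irgm1 did after quantile normalization.

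The spread between mice was compared by limma on the absolute deviation of each value from its group median. Cxcl9 was more spread in MSXH, with values from -15.6 to 23.7 milliunits against -8.73 to 8.25 in HFD and an SD ratio of 2.11 (unadjusted limma p 0.0256). Oasl1 was more spread in MSXH as well, with a ratio of 2.89 (p 0.0398), and Ifi35 less spread, with a ratio of 0.544 (p 0.0406). These 3 of 29 members compare with 4.31% of all genes at that p. When MSXH 4 and 6 were left out, Cxcl9 had a ratio of 1.73 (p 0.135) and Ifi35 of 0.585 (p 0.0813), and Oasl1 remained at that p with 3.17 (p 0.0383), 1 of 29 members against 4.11% of all genes. After centring Cxcl9 was at p 0.0127, Oasl1 at 0.0532 and Ifi35 at 0.177, where the ratio of Ifi35 had turned to 8.22. By limma 0 members and 0 genes passed an adjusted p of 0.05, and the smallest was 0.996. The SD was larger in MSXH for 16 members and smaller for 13, with a median ratio of 1.04.

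**Figure D3:**
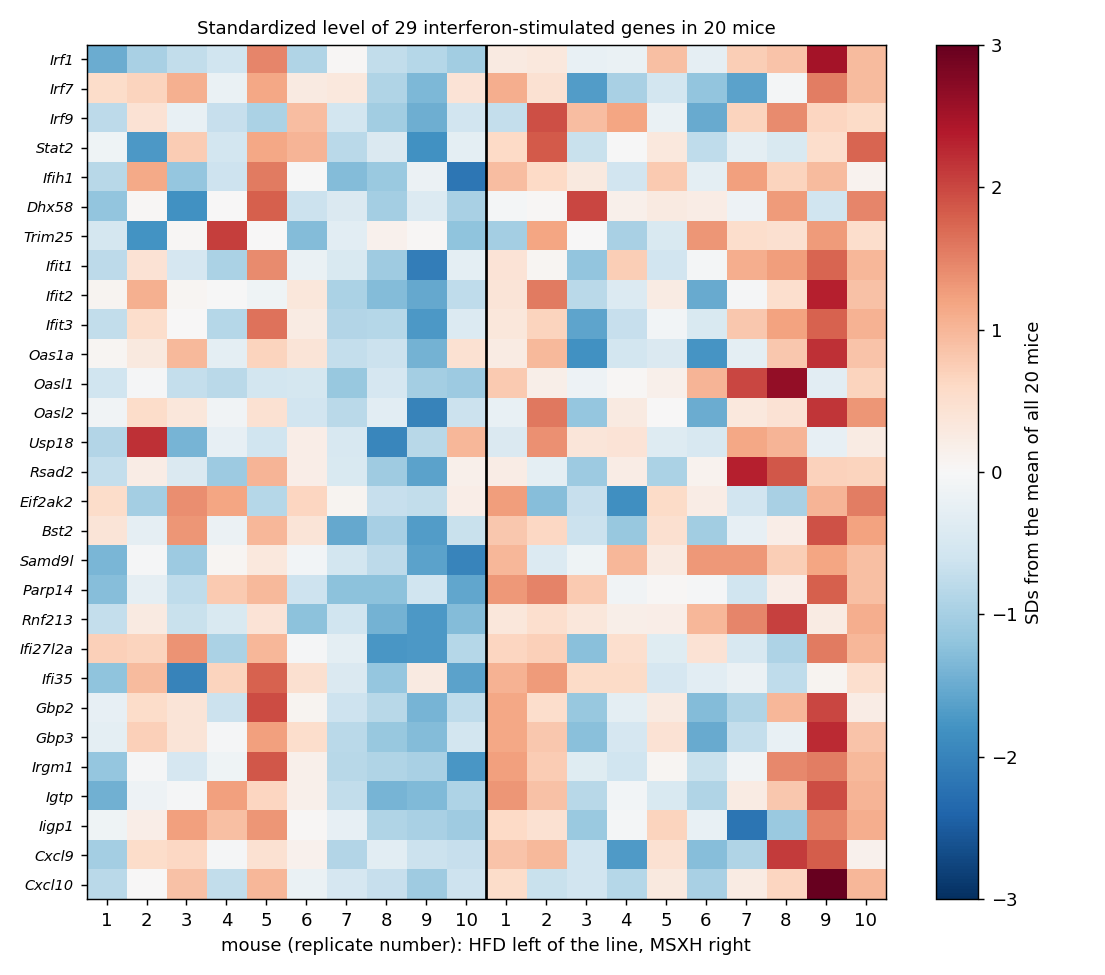
Level of the 29 members (rows, ordered by role) in each of the 20 mice (columns), as SDs from the mean of all mice, with HFD mice left of the line and MSXH mice right. Many members are high together in HFD 5 and MSXH 9 and low together in HFD 9, and MSXH 10 is above the mean for 29 of 29 members.

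Within each group, mice were high or low for many members together. HFD 5 was the highest HFD mouse for 17 of 29 members, with a mean of 0.8 SDs above the mean of all mice, and HFD 9 was the lowest for 14, with a mean of -1.16. MSXH 9 was the highest MSXH mouse for 16 members and the highest of all 20 mice for 15, with a mean of 1.35. MSXH 6 was the lowest MSXH mouse for 11 members, at a mean of -0.43. MSXH 10 was the highest MSXH mouse for 1 member and the lowest for 0, and lay above the mean of all mice for 29 of 29, at 0.88. Some members did not follow: Oasl1 peaked in MSXH 8 and Rsad2 in MSXH 7, and MSXH 9 was the lowest MSXH mouse for Oasl1 and Dhx58.

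Pearson correlations were computed between the members over the 10 mice of each group, 812 in all over both groups. In HFD the median of the 406 correlations was 0.50, and 103 pairs (25.4%) were at 0.7 or more, against 2.02% of all pairs of genes. Among the 1879 genes at least as variable in HFD as the median member, 6.71% of pairs were. In MSXH the median was 0.33, and 90 pairs (22.2%) were at 0.7 or more, against 2.19% of all pairs and 10.6% of pairs among 1602 genes as variable. The median over all pairs of genes was 0.0 in both groups. An unadjusted permutation p under 0.05 was found for 131 pairs in HFD and 113 in MSXH, and the pairs share genes and mice, so they are not independent. When the 2 most extreme mice for the first gene of a pair (the farthest from its median) were left out, 40 of the 103 pairs and 49 of the 90 were still at 0.7 or more, and 84 and 75 at 0.5 or more.

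These counts moved with the scaling. In MSXH the median r was 0.73 after quantile normalization and 0.81 after centring, with 220 and 269 pairs at 0.7 or more. Without MSXH 4 and 6 the median in MSXH was 0.33 as deposited, 0.25 centred and 0.1 quantile normalized, with 85, 69 and 37 pairs. In HFD, which holds neither of these mice, the median was 0.16 with 37 pairs after quantile normalization and 0.36 with 73 pairs after centring. After quantile normalization Iigp1 did not vary between HFD mice beyond rounding, so its HFD pairs hold no information. Genes outside the members moved in MSXH too. Interferon genes had a median r with the members of 0.01 as deposited, 0.83 quantile normalized and 0.94 centred. Skeletal muscle genes had -0.28, -0.79 and -0.85. The share of all pairs of genes at 0.7 or more is not given for these scalings.

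**Figure D4:**
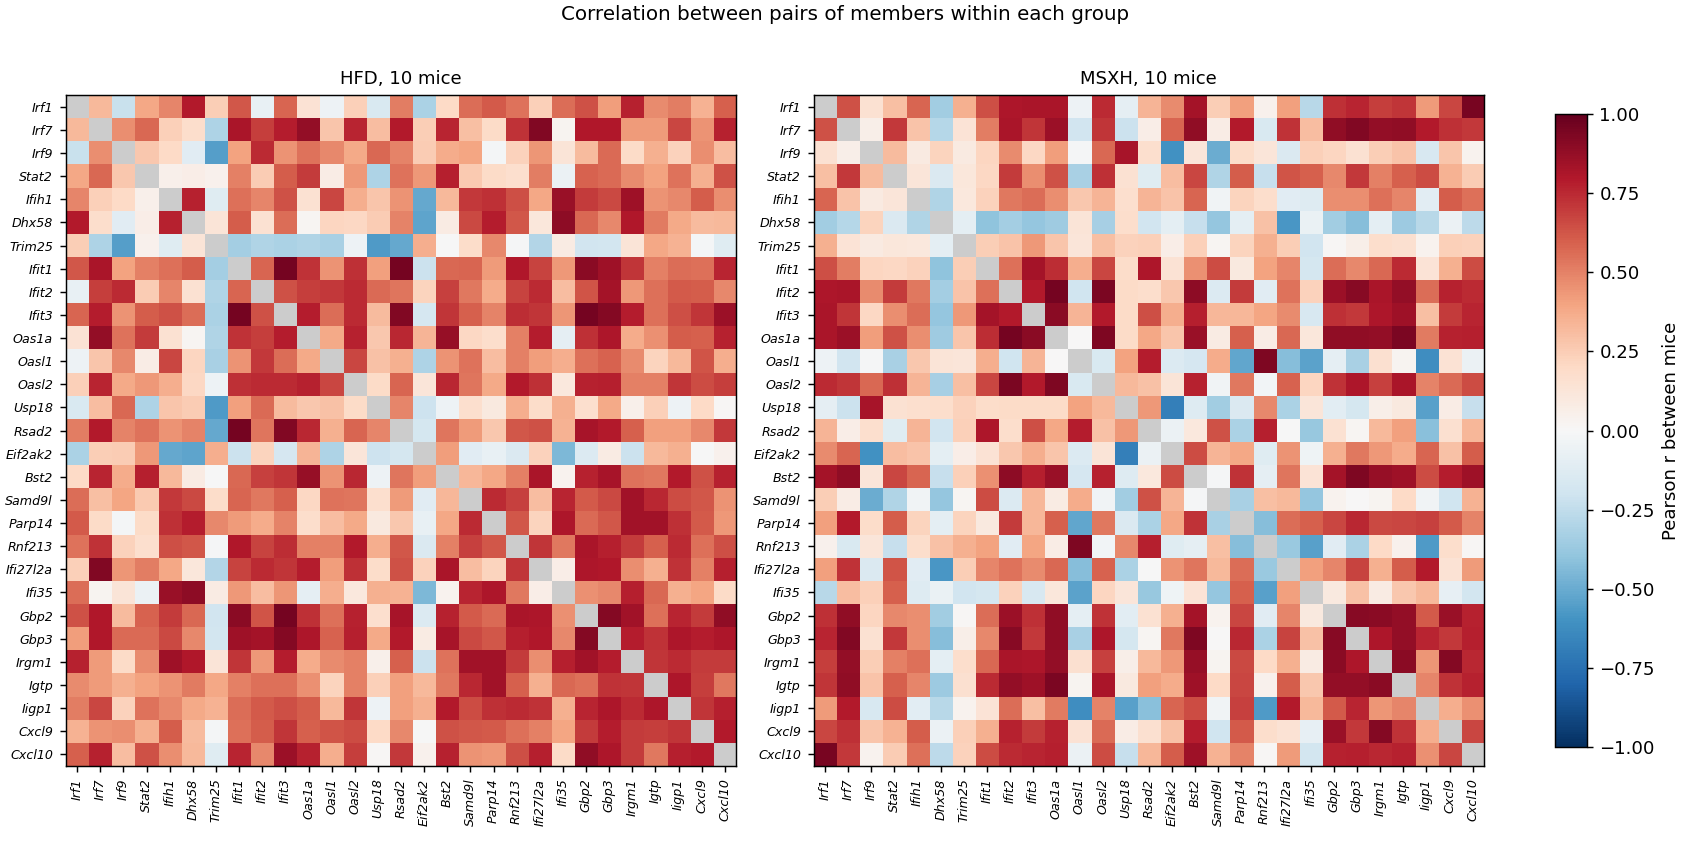
Pearson r between each 2 members over the 10 HFD mice (left) and the 10 MSXH mice (right), from -1 (blue) to 1 (red), with members ordered by role and the diagonal in grey; values as deposited. Most squares are red in both groups, while the rows of Trim25 and Eif2ak2 in HFD and of Dhx58, Oasl1, Rnf213, Samd9l, Ifi35 and Usp18 in MSXH are pale or blue.

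A set of 44 pairs was at 0.7 or more in both groups, which is 42.7% of the HFD pairs, 48.9% of the MSXH pairs and 10.8% of all member pairs, against 0.159% of all pairs of genes. This count was 25 after quantile normalization and 58 after centring, and without MSXH 4 and 6 it was 44 as deposited, 30 centred and 11 quantile normalized. The share of all pairs of genes is not given for these settings. The 44 pairs as deposited joined 16 members and left 13 out. Gbp3 was in 12 of them, Gbp2 and Ifit3 in 9 each, Oas1a and Irf7 in 8 each, and Bst2, Cxcl10 and Oasl2 in 7 each. The ISRE was in the windows of Gbp3, Gbp2, Ifit3, Oas1a, Bst2 and Cxcl10, as printed above, and not in those of Irf7 and Oasl2.

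Gbp2 and Gbp3 had the highest correlation when each pair was ranked by the lower of its 2 groups. Their r was 0.919 in HFD and 0.908 in MSXH, with rho of 0.927 and 0.891, unadjusted permutation p of 3e-05 and 0.00039, and r of 0.894 and 0.796 without the 2 farthest mice. These neighbours on chromosome 3 are close in sequence, and whether probes of either take up RNA of the other was not tested. Oas1a and Bst2, on different chromosomes, had r of 0.873 and 0.863 (rho 0.818 and 0.842; permutation p 0.00104 and 0.00137), and 0.754 and 0.78 without the 2 farthest mice. Irf7 and Oas1a had r of 0.880 and 0.852 (rho 0.794 and 0.842; permutation p 0.00066 and 0.00146), and 0.711 and 0.839 without them. Gbp2 and Irgm1 had r of 0.843 and 0.902 (rho 0.721 and 0.915; permutation p 0.00534 and 0.00048), and 0.463 and 0.852 without them.

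Ifit2 and Gbp3 had r of 0.833 and 0.914, with rho of 0.782 and 0.879 and permutation p of 0.00341 and 0.00026, and r of 0.667 and 0.788 without the 2 farthest mice. Ifit1 and Ifit3 had r of 0.956 in HFD and 0.831 in MSXH, with rho of 0.842 and 0.842 and permutation p of 0.0001 and 0.00307, and the MSXH value dropped to 0.565 without the 2 farthest mice. Ifit1 and Rsad2 had r of 0.956 and 0.810, rho of 0.976 and 0.927, and permutation p of 1e-05 and 0.0047. The first of these p-values is the smallest that 100000 permutations can give, and without the 2 farthest mice r was 0.904 and 0.874. Bst2 and Gbp3 had r of 0.824 and 0.934 (permutation p 0.00433 and 0.00019), and 0.807 and 0.964 without them. The 8 pairs named so far are those with the highest lower r. Under quantile normalization r of Gbp2 and Gbp3 was 0.917 in HFD and 0.91 in MSXH, whereas in HFD it was -0.127 for Oas1a and Bst2, -0.392 for Gbp2 and Irgm1 and 0.473 for Irf7 and Oas1a. Without MSXH 4 and 6, r in MSXH for the 8 pairs ran from 0.823 to 0.97 as deposited.

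By role and as deposited, the GTPases had a median r over 10 pairs of 0.77 in HFD and 0.84 in MSXH. After centring these medians were 0.65 and 0.69. After quantile normalization the MSXH median was 0.51. The HFD median was then 0.0, but Iigp1 did not vary between HFD mice beyond rounding, so its pairs there hold no information. As deposited, the IFIT genes had a median of 0.63 and 0.80 over 3 pairs. The single pair of chemokines, Cxcl9 and Cxcl10, had 0.79 and 0.67, with 0.5 in MSXH without MSXH 4 and 6. In the OAS family the median was 0.67 in HFD and 0.0 in MSXH, where Oas1a and Oasl2 were at 0.935 and both pairs with Oasl1 were near or below 0. This MSXH median was 0.87 after quantile normalization and 0.83 after centring, and 0.02 as deposited without MSXH 4 and 6. The genes of RNA sensing had 0.13 and -0.1. Pairs of the same role had a median of 0.54 in HFD and 0.36 in MSXH, and pairs of different roles 0.50 and 0.32.

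Rnf213, Samd9l and Oasl1, with the largest group differences, had mean correlations with the other 28 members of 0.56, 0.50 and 0.36 in HFD and of 0.06, 0.05 and 0.01 in MSXH as deposited. The order of the groups rested on the scaling: after quantile normalization these means were 0.16, 0.09 and 0.34 in HFD and 0.69, 0.77 and 0.76 in MSXH, and after centring 0.38, 0.38 and 0.37 in HFD and 0.81, 0.82 and 0.69 in MSXH. With MSXH 4 and 6 left out, the MSXH means of Rnf213, Samd9l and Oasl1 were 0.04, 0.24 and -0.01 as deposited, 0.07, 0.17 and 0.0 centred, and 0.21, -0.22 and 0.17 quantile normalized. The difference between the groups was not tested. In MSXH, Oasl1 and Rnf213 kept to each other, with r of 0.936 (rho 0.842; permutation p 0.00037; 0.723 without the 2 farthest mice; 0.933 without MSXH 4 and 6, and 0.207 with quantile normalization of the rest), and both were highest in MSXH 8 and next in MSXH 7. In HFD their r was 0.504 (rho 0.188; permutation p 0.135). As deposited, Dhx58 had a mean of 0.37 in HFD and -0.20 in MSXH, and Ifi35 0.35 and 0.03, and their MSXH means were 0.79 and 0.72 after quantile normalization. Gbp3 had the highest mean in HFD, 0.65, with 0.49 in MSXH, while Trim25 (-0.08 and 0.17) and Eif2ak2 (-0.01 and 0.22) followed the others least in HFD.

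**Figure D5:**
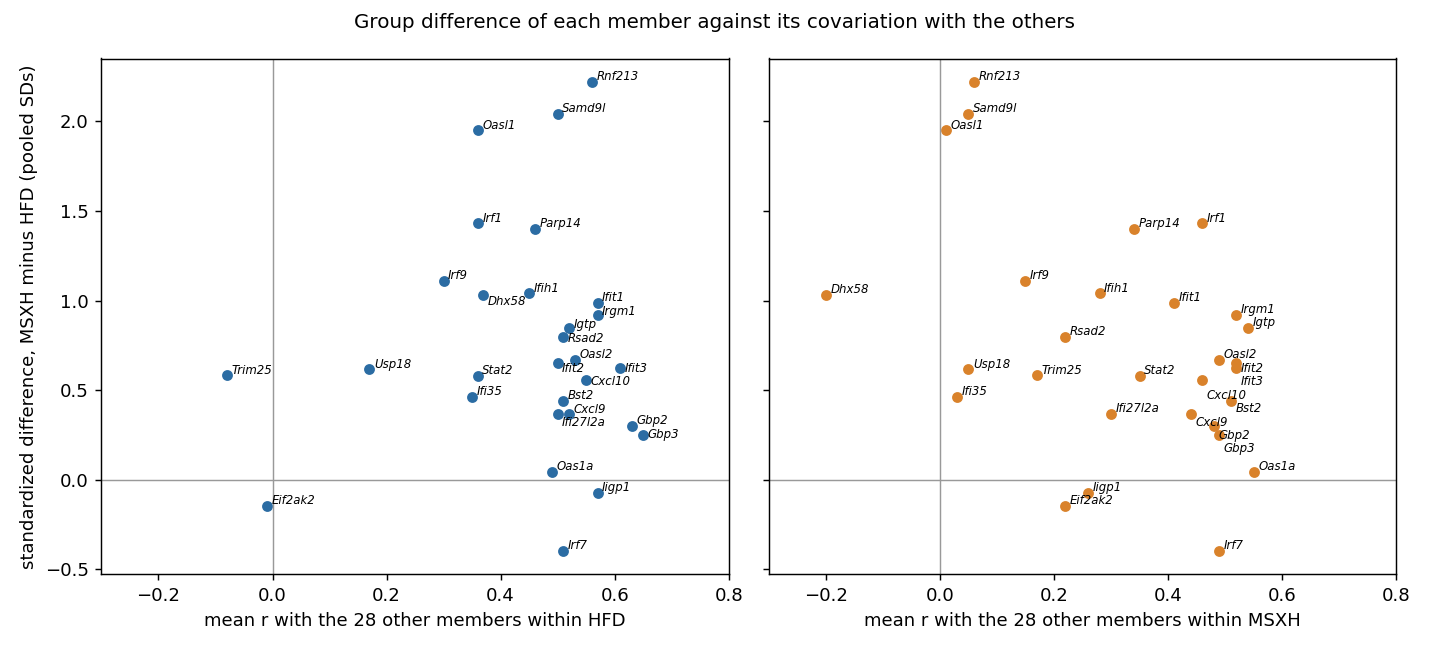
Standardized difference of each of the 29 members (MSXH minus HFD, in pooled SDs; values as deposited) against its mean Pearson r with the 28 other members within HFD (left) and within MSXH (right), 10 mice each. Rnf213, Samd9l and Oasl1 are at the top of both panels, at mean r of 0.36 to 0.56 in HFD and 0.01 to 0.06 in MSXH; with quantile normalization their mean r was 0.09 to 0.34 in HFD and 0.69 to 0.77 in MSXH. These 3 and 15 other members turned sign of the difference under at least 1 scaling.

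The genes outside the list that tracked the members best, by mean r over all mice after the group means were subtracted, were Rtp4 (0.57), H2-Eb1 (0.56), Gbp7 (0.55), Gbp6 (0.55), H2-Aa (0.54), Mndal, H2-Ab1, Xaf1, Gbp8 and Rab8b (0.54). The median over the members themselves was 0.41, and over the 18164 other genes 0.0. Rtp4, Gbp6, Gbp7 and Xaf1 are interferon-stimulated genes too, and H2-Eb1, H2-Aa and H2-Ab1 encode class II molecules, which present antigen on macrophages, dendritic cells and B cells. Their own standardized differences were small: that of H2-Eb1 was 0.0331 (-0.844 to 0.909) and that of H2-Aa -0.0306 (-0.907 to 0.846), while Rtp4 stood at 0.877 (-0.0557 to 1.79).

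Markers of macrophages varied beside the members in the deposited values. All 15 macrophage and Kupffer cell markers were measured, and their mean ran from -0.7 to 0.98 SDs in HFD and from -0.99 to 1.31 in MSXH, with a median r with the members of 0.34 and 0.43. MSXH 1 and MSXH 9 were at 1.31 and 1.3, and MSXH 6 at -0.99. Between the groups, 12 of the 15 were higher and 3 lower, with a median of 0.126, and 1 was at an unadjusted p under 0.05, where 54.7% of all genes were higher and 6.58% were higher at that p. Of these 15, 3 were higher after quantile normalization and 2 after centring, where 7.74% and 2.75% of all genes were. As deposited without MSXH 4 and 6, 14 were higher, where 54.6% of all genes were. The median r with the members in MSXH was then 0.42 and, centred, 0.34. With quantile normalization and without these 2 mice that median r was 0.15. In HFD it was lower under both scalings, at 0.13 after quantile normalization and 0.14 after centring. The 13 measured T and NK cell markers had a median difference of 0.5, with a median r of 0.03 and 0.19, and 10 lay below the median gene. The median r in HFD and MSXH was 0.07 and 0.16 for 5 B cell markers, -0.04 and -0.08 for 6 dendritic cell markers and 0.06 and 0.12 for 7 neutrophil markers. Hepatocyte markers had a median r of -0.35 in HFD and -0.11 in MSXH as deposited. After centring these were -0.16 and 0.85. Without MSXH 4 and 6 the MSXH value was -0.11 as deposited and 0.0 centred. HFD 5, the HFD mouse with the highest members, had the lowest hepatocyte mean, -1.43. Stellate cell markers had a median r of 0.41 in HFD and -0.03 in MSXH as deposited, and 0.21 in MSXH without MSXH 4 and 6. It was 0.12 and 0.34 after quantile normalization, and 0.26 and 0.15 after centring. The part of these cells in the covariation was not tested.

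The rest of the pathway was described from lists of genes that are no members. Of the 49 other interferon-stimulated genes listed, 42 were measured. As deposited, 29 were higher and 13 lower in MSXH, with a median of 0.423, where 54.7% of all genes were higher. An unadjusted limma p under 0.05 was found for 10, all higher (23.8%, against 6.58% of all genes). Of these 42, 11 were higher after quantile normalization and 7 after centring, where 7.74% and 2.75% of all genes were, and 1 was at that p in each. When MSXH 4 and 6 were left out, 32 were higher as deposited, 32 centred and 35 quantile normalized, where 54.6%, 42.0% and 54.6% of all genes were. The T cell chemokine Cxcl11 stood at 1.74 (0.682 to 2.77; adjusted p 0.204), the peptide transporter Tap1 at 1.65 (0.605 to 2.66) and the Fc receptor ligase Trim21 at 1.63 (0.588 to 2.63), and Tap1 and Trim21 turned under both scalings. Cxcl11 did not turn, and MSXH was higher in 90 of 100 pairs. Its mean level of 6.5 lay below the median gene. After the group means were subtracted, its mean r with the members was -0.16.

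Upstream, 9 of 15 listed interferon genes were measured, 8 of them below the median gene. Of these 2 were higher and 7 lower as deposited, with a median of -0.433 and none at an unadjusted p under 0.05 by limma. After either scaling 0 were higher. Without MSXH 4 and 6, 2 were higher as deposited, 2 after centring and 3 after quantile normalization. The lowest p as deposited belonged to Ifna9, at -0.686 (-1.58 to 0.227). Beside the counts of this and the following lists, 54.7% of all genes were higher as deposited, 7.74% after quantile normalization and 2.75% after centring. Without MSXH 4 and 6, 54.6% were higher as deposited, 42.0% after centring and 54.6% after quantile normalization. Of 10 measured receptors, kinases and STATs, 9 were higher and 1 lower, with a median of 0.255, and 1 was higher after quantile normalization and 1 after centring. Without MSXH 4 and 6, 9 were higher as deposited, 8 after centring and 9 after quantile normalization. Ifngr2, a chain of the interferon gamma receptor, stood at 1.37 (0.373 to 2.34) and Ifnlr1, the type III receptor, at -1.76 (-2.79 to -0.7), with limma adjusted p of 0.271 and 0.21. Jak1 stood at 0.934, and turned under both scalings.

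Of 13 measured sensors and adaptors, 8 were higher and 5 lower, with a median of 0.116, and 1 and 0 were higher after the 2 scalings. Without MSXH 4 and 6, 8 were higher as deposited, 7 after centring and 8 after quantile normalization. Tlr3, the endosomal sensor of viral RNA, stood at 1.38 (0.384 to 2.35), Tlr9, which senses DNA, at -1.04 (-1.97 to -0.0926), and Ddx58, which encodes RIG-I, at 0.828 (-0.0989 to 1.73). Of 11 measured negative regulators, 8 were higher and 3 lower, with a median of 0.483, and 0 were higher after either scaling. Without MSXH 4 and 6, 8 were higher as deposited, 7 after centring and 7 after quantile normalization. The phosphatase gene Ptpn6 stood at 1.12, Nlrx1, which restrains signalling at mitochondria, at 1.0, and Tnfaip3, which encodes A20, at 0.938. Tlr3, Ddx58, Ptpn6, Nlrx1 and Tnfaip3 turned under both scalings. None of these lists held a gene past an adjusted p of 0.05 in limma.

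Where a member had other probe sets, most gave the same sign. Of the 16 other probe sets of 11 members, 13 had the sign of the one used and 4 were at an unadjusted limma p under 0.05. Of all 34945 probe sets 3746 were at that p. In MSXH 12 of the 16 were higher, and 53.0% of all probe sets were. How often other probe sets share the sign over all genes is not given. A correlation of 0.7 or more with the one used was found in both groups for 7, among them those of Iigp1 (0.99 and 0.98), Gbp2 (0.97 and 0.98) and Rsad2. That of Rnf213 lay lower, at a mean level of 6.42, and stood at 0.395 (-0.496 to 1.28), with r of -0.37 in HFD and 0.74 in MSXH. Samd9l and Oasl1 had 1 probe set each.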

How the data were processed

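Liver RNA was labelled with biotin from 200 ng and hybridised to 1 Affymetrix array for each mouse, as the labels state. Probe set levels deposited by the authors were treated as log2 values; the base, background correction, normalization and summary were not given in the sources used here. Of 45101 probe sets, 34945 had exactly 1 symbol in the platform annotation, 932 had several and 64 were controls; for each gene the probe set with the highest mean was used, with no filter on level. Groups came from the sample titles. The labels call the mice biological replicates. limma 3.58.1 (R 4.3.3; lmFit, eBayes with a trend, two-sided, 0.704 prior and 18 residual degrees of freedom) was fitted to all 18193 genes, with Benjamini-Hochberg adjustment and a threshold of 0.05, and tested on simulated data. Standardized differences carry noncentral t intervals at 95%. Correlations carry two-sided p-values from 100000 permutations, unadjusted, and the 8 pairs with the highest lower r of both groups are named; Oasl1 with Rnf213 and Oas1a with Oasl2 were chosen after their values were seen. All members are named, with 3 genes of smallest p per pathway list and the 10 best tracking genes. For arrays, their number limits the precision.

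The labels state no pairing of mice by replicate number. Same-numbered mice correlated at -0.265 to 0.165, with 2 of 10 over 0.1, which cannot exclude a pairing. Alternatives were quantile normalization, centring, a replicate block, the mean of probe sets, every probe set, genes above the median gene, eBayes without trend, the rank sum test, an adjusted p of 0.10, rho, an r of 0.5, leaving out MSXH 4 and 6 alone or with either scaling, and leaving out each mouse. The members and lists were chosen with earlier results of these data known. Correlations, motifs and figures used Python 3.11.15 (scipy 1.17.1, numpy 2.4.6, matplotlib 3.10.9).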

Additional observations from a re-analysis of the deposited data

Results flagged for a closer look

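Mice far from the rest of their group were found for 6 of the 58 combinations of a member and a group. The measure was the gap to the nearest mouse as a share of the group's range, past Dixon's 95% critical value for 10 mice. For independent, normally distributed values chance alone gives about 1 in 20. The combinations share mice and the members covary, so that rate is no background for this count. The share over all genes is not given. HFD 5 was the highest HFD mouse by such a gap for Irf1 (0.484), Dhx58 (0.486) and Irgm1 (0.472). MSXH 9 was the highest MSXH mouse for Irf1 (0.566) and Cxcl10 (0.513). HFD 4 was the highest HFD mouse for Trim25 (0.503). HFD 5 and MSXH 9 were also the highest of their groups for most other members, and in HFD 5 the hepatocyte markers were at their lowest; their part was not tested.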

How the results depend on the processing

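The direction of the members rested on the scaling. After quantile normalization, 10 members were higher and 1 had an unadjusted p under 0.05, with a median standardized difference of -0.192, and these members and pathway genes turned sign: Irf1 -0.0268, Irf9 -0.0645, Stat2 -0.232, Ifih1 -0.145, Dhx58 -0.453, Trim25 -0.262, Ifit1 -0.335, Ifit2 -0.45, Ifit3 -0.192, Oas1a -0.359, Oasl1 -0.111, Oasl2 -0.473, Samd9l -0.469, Parp14 -0.24, Ifi35 -1.19, Irgm1 -0.511, Jak1 -0.173, Tlr3 -0.585, Ddx58 -0.114, Ptpn6 -0.343, Nlrx1 -0.405, Tnfaip3 -0.591, Tap1 -0.0432 and Trim21 -0.576. After centring, 13 were higher and 0 had such a p, with a median of -0.16, and the values that turned were Stat2 -0.528, Ifih1 -0.457, Dhx58 -0.534, Trim25 -0.39, Ifit2 -0.404, Oas1a -0.558, Oasl2 -0.294, Bst2 -0.0252, Samd9l -0.407, Parp14 -0.517, Rnf213 -0.408, Ifi35 -0.63, Irgm1 -0.41, Jak1 -0.566, Tlr3 -0.531, Ddx58 -0.62, Ptpn6 -0.575, Nlrx1 -0.597, Tnfaip3 -0.466, Tap1 -0.42 and Trim21 -0.428. With the mean of probe sets Eif2ak2 was 0.0734, and without MSXH 4 and 6 it was 0.0308. Without MSXH 4 and 6 and with quantile normalization, Irf7 was 1.53, Ifi35 -1.08, Irgm1 -0.0789, Ifna2 0.12 and Ifnlr1 0.964. Over all genes 1 passed with the mean of probe sets, 4 in the rank sum test, 12 at an adjusted p of 0.10, and 0 to 3 when a mouse was left out (3 without HFD 3, and 1 each without HFD 6, HFD 9, MSXH 2 or MSXH 3); 0 members passed in any of these. With the replicate block, 26 members were higher and 7 were at that unadjusted p, with a median of 0.564, and no call differed. Of all 18193 genes 54.7% were higher with the block and 1816 were at that p, with a median of 0.0659. The median r in HFD was 0.16 with 37 pairs at 0.7 or more after quantile normalization; in MSXH it was 0.73 with 220 pairs, and 0.81 with 269 pairs after centring. At an r of 0.5, 205 and 148 pairs passed. Without MSXH 4 and 6 and with quantile normalization, a setting added after the data were seen, 37 MSXH pairs passed. With single mice left out, 25 to 27 members were higher, 6 (without HFD 8) to 12 (without MSXH 6) were at the unadjusted p, and the median ran from 0.504 to 0.788. Over all genes 53.8% to 55.3% were then higher, and 1667 (without MSXH 8) to 2221 (without MSXH 9) were at that p. Oas1a ran from -0.217 to 0.263, Eif2ak2 from -0.34 to 0.0456 and Iigp1 from -0.251 to 0.183. The difference of 16 of the 29 members moved by over 1.5 times when some mouse was left out. The pairs ran from 81 to 123 in HFD and from 63 (without MSXH 9) to 108 in MSXH. The cause of these shifts was not tested, beyond the values without MSXH 4 and 6.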
